A study of Homo sapiens with 6 samples.

Results

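Annexins are proteins that bind acidic membrane phospholipids in the presence of calcium, and the best studied of them in white blood cells, annexin A1, acts through the formyl peptide receptors. The genes described here are 8 annexins (ANXA1, ANXA2, ANXA3, ANXA4, ANXA5, ANXA6, ANXA7 and ANXA11) and the receptors FPR1 and FPR2, which makes 10 of the 26410 genes in the count table. They were taken by name, and they were selected on results of the same comparison that is described below, in which ANXA1 was among the deepest falls. Their levels and fold changes are therefore a description, without a test. Of the 10 genes, 7 passed the filter on low counts and were among the 13014 genes fitted, whereas ANXA3, FPR1 and FPR2 held too few reads.

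The cells are Kasumi-1, an established human line of acute myeloid leukaemia known for its RUNX1::RUNX1T1 fusion. In the shPHF19 group (n = 3 libraries) they received a short hairpin RNA against PHF19, an accessory subunit of Polycomb repressive complex 2, which methylates histone H3 at lysine 27. In the control group (n = 3 libraries) they received a scrambled hairpin per the treatment protocol, although the treatment label of these samples reads WT. Both groups were kept in the same medium and, per the protocol, put under puromycin (2 µg/ml) 48 h after transfection, for 24 h or longer, so each library is a pool of selected cells of 1 line. The labels do not say whether the replicates were separate cultures, so that errors and p-values reflect library-to-library spread only, possibly a technical one.

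Annexin A1 is a glucocorticoid-inducible protein of neutrophils, monocytes and macrophages that is known for limiting neutrophil recruitment. FPR2 is its main receptor, and FPR1, the receptor for formylated peptides of bacteria and mitochondria, responds to peptides from its amino terminus. The other annexins share the calcium and phospholipid binding core and differ in their amino-terminal tails, through which several of them hold S100 proteins or other partners.

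The targeted gene was read first, as a check of the labels. PHF19 stood at 41.1, 36.9 and 33.0 CPM (read counts scaled to library size, with TMM factors) in the shPHF19 libraries, against 167, 199 and 189 CPM in the control libraries. Its mean was 37.0 ± 4.04 CPM in shPHF19 and 185 ± 16.1 CPM in control cells (SD, n = 3 each), a log2 fold change of -2.32 (SE 0.0975, edgeR quasi-likelihood test, Benjamini-Hochberg adjusted p = 3.75e-25). Totals ran from 14663463 to 16615143 counts in shPHF19 and from 14229878 to 15961787 counts in control libraries. The limit that a count of 0 sets (3 counts) is 0.181 to 0.211 CPM when scaled to library totals without TMM factors. All 7 Kasumi-1 identity markers (RUNX1T1, KIT, CD34, CD33, MPO, PTPRC and SPI1) were expressed in both groups, and they moved both ways, 4 higher and 2 lower. Of all genes fitted, 29.4% were called higher and 30.9% lower at an edgeR adjusted p under 0.05. CD34 averaged 829 CPM in shPHF19 and 356 CPM in control cells, and PTPRC 98.2 CPM in shPHF19 and 256 CPM in control cells, while the list's sum, mostly MPO and KIT, was 12700 to 13400 CPM in shPHF19 and 8120 to 8410 CPM in control libraries. Erythroid markers summed to 0.223 to 0.688 CPM in shPHF19 and 0.43 to 1.17 CPM in control libraries. Stromal and endothelial markers summed to 1.81 to 2.82 CPM in shPHF19 and 2.27 to 3.56 CPM in control libraries, and B cell markers to 11.7 to 13.6 CPM in shPHF19 and 9.89 to 13.7 CPM in control libraries. T cell markers summed to 50.2 to 54.4 CPM in shPHF19 and 38.2 to 43.8 CPM in control libraries. Most of this was CD3D, which was called higher, while CD3E and CD8A were called lower.

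The start regions of 4 of the genes show how unlike one another they are in sequence: ANXA1 and FPR1 without a CG dinucleotide, ANXA2 rich in them with a TATA box, and ANXA6, the most abundant annexin per length. Each run is the RefSeq window of 300 bases on the gene's own strand, with 250 bases before the annotated start and 50 from it on (assembly GRCh38.p14). Capitals mark CG dinucleotides and the letters TATAAA, and the FPR1 window has neither. The windows are chr9:73151615-73151914 on the plus strand for ANXA1, and chr19:51751829-51752128 on the minus strand for FPR1. Those of ANXA2 and ANXA6 are chr15:60397937-60398236 and chr5:151157730-151158029, both on the minus strand.
ANXA1: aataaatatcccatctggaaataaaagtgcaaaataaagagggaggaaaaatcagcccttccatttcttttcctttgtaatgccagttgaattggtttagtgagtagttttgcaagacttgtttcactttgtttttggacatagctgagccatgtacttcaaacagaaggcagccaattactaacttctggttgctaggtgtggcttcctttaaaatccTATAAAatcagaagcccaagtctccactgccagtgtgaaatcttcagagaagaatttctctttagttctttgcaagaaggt
FPR1: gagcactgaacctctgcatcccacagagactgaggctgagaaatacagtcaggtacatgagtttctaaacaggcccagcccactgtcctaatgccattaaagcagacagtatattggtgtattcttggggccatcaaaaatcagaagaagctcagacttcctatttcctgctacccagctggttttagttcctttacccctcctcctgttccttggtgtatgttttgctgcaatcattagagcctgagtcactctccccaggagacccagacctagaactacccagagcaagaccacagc
ANXA2: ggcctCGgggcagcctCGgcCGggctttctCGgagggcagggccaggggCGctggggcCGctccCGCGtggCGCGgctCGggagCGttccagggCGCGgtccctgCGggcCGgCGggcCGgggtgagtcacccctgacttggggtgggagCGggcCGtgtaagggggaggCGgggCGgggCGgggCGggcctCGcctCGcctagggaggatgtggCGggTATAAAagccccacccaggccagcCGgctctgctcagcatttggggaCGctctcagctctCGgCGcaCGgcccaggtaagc
ANXA6: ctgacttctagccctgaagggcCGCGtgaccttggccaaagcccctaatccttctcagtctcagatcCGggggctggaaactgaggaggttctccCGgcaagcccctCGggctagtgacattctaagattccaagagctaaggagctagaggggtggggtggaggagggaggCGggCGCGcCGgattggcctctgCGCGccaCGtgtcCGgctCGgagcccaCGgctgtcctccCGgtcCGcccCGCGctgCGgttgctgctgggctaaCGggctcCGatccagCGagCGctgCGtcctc

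In GENCODE 29 (GRCh38), ANXA2 spans chr15:60347134-60402883 and ANXA6 chr5:151100712-151157882, both on the minus strand. ANXA3 (chr4:78551519-78610451, plus strand) and ANXA5 (chr4:121667955-121697113, minus strand) share a chromosome, as do ANXA7 (chr10:73375101-73414076) and ANXA11 (chr10:80150889-80205572), both on the minus strand. ANXA4 spans chr2:69644425-69827100 on the plus strand.

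All 10 genes matched the RefSeq table, several with more than 1 start. The count of CG dinucleotides was 0 in the ANXA1 window and 0 in the FPR1 window, a value shared by 3.96% of all 35116 windows in the table. FPR2 held 4 and 5 CG in its windows. The other annexins held more, with 23 in ANXA7, 25 in ANXA3, 32 in ANXA2, 36 in ANXA5, 44 and 27 in the windows of ANXA4, 25 and 10 in those of ANXA6, and 12, 30 and 7 in those of ANXA11, where the median of all windows was 14. Both ANXA1 and ANXA2 had TATAAA beginning 31 bases before the start, and 1 window of ANXA11 had it 61 bases before; 11.5% of all windows hold these letters on either strand. TGTGGT, the core letters bound by RUNX factors, occurred in FPR1 on the opposite strand, 42 bases after the start, and in 2 windows of ANXA11, against 13.1% of all windows. TGANTCA, the letters of an AP-1 element, occurred in ANXA2 127 bases before the start and in FPR1 6 bases before it, against 7.71% of all windows. This pattern reads the same on both strands and overlaps neither of the other 2 motifs. A match describes letters only, and no binding or chromatin data were used here.

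Across the family, ANXA1 and ANXA4 were lower in shPHF19 and ANXA2, ANXA5, ANXA6, ANXA7 and ANXA11 were higher. At an adjusted p under 0.05, 5 of the 7 fitted genes were called higher and 2 lower. Among all genes fitted, 60.2% were called, 29.4% as higher and 30.9% as lower in shPHF19, and since the genes were picked from this comparison nothing is read from their share. The groups' values did not overlap for any of the 7 fitted annexins, which was also the case for 63.5% of all genes fitted. The median log2 fold change was 0.32 over the 7 annexins and -0.03 over all genes. In the size of the change ANXA1 exceeded 99.7% of genes, ANXA2 79.1%, ANXA6 76.2%, ANXA7 70.9%, ANXA4 66.2%, ANXA11 38.1% and ANXA5 29.6%. The changes thus ranged from a near loss of ANXA1 to differences in ANXA5 and ANXA11 that were smaller than that of the median gene, whose absolute log2 fold change was 0.45.

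**Figure D1:**
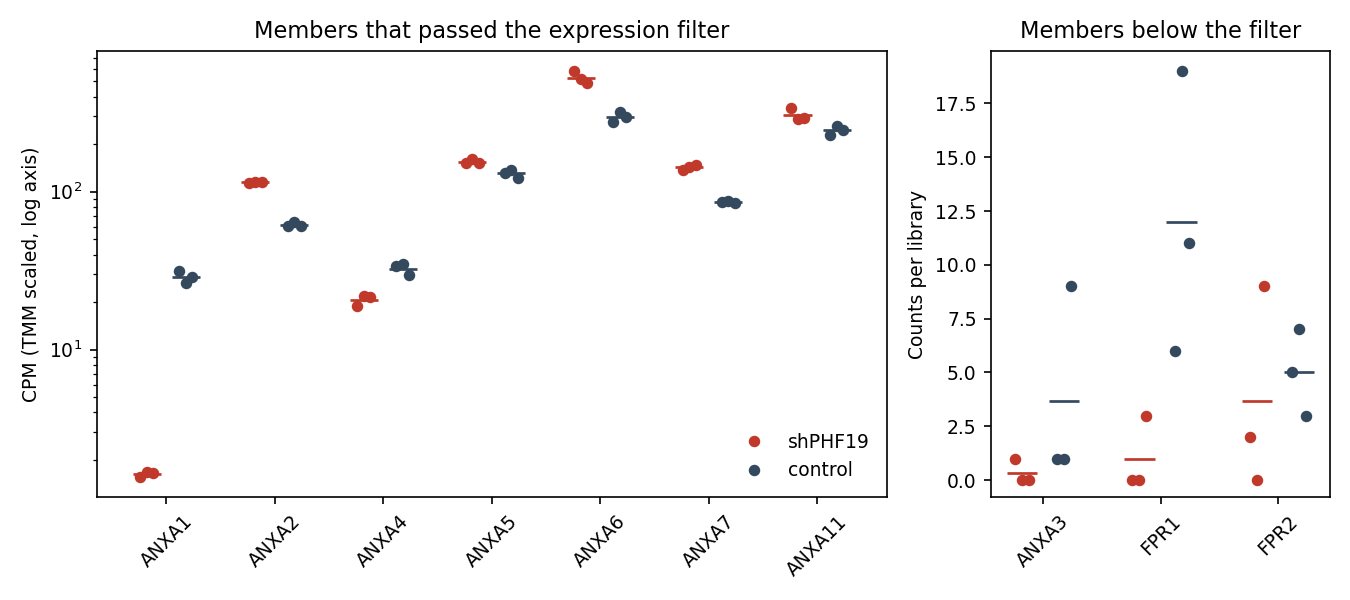
Levels in each library, with shPHF19 left of control: TMM-scaled CPM on a log axis for the 7 fitted annexins (left panel) and raw counts for ANXA3, FPR1 and FPR2 (right panel). Dots are libraries and bars are group means; ANXA1 lies between 1.56 and 1.68 CPM in shPHF19 and between 26.4 and 31.5 CPM in control cells, and every annexin of the left panel has groups that do not overlap.

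ANXA1, the ligand of the family, had 1.56, 1.68 and 1.65 CPM in the shPHF19 libraries (21, 26 and 24 counts), against 31.5, 26.4 and 28.8 CPM in the control libraries (512, 449 and 445 counts). The 3 shPHF19 libraries were close to one another and far below every control library. The mean was 1.63 ± 0.0652 CPM in shPHF19 and 28.9 ± 2.51 CPM in control cells (SD, n = 3 each), 17.7-fold lower, with a log2 fold change of -4.14 (SE 0.189). Only 39 genes, ANXA1 included, had a log2 fold change this low or lower among the 13014 fitted. The authors' deposited table gives -4.10 (SE 0.23) for ANXA1. The gene lies on chromosome 9 at 73151757 to 73170393 (GRCh38, GENCODE 29, plus strand), and none of its 50-base transcript words occurs in another gene's transcripts. The nearest fitted genes of ANXA1 did not fall: ZFAND5, 786.5 kb away, had a value of -0.01 on the log2 scale (edgeR adjusted p = 0.961), and TRPM6, 1552.1 kb away on the other side, rose with 1.20 (edgeR adjusted p = 1.11e-10). Next to the weakly detected ANXA3, FRAS1 and LINC01094, 7.2 and 35.5 kb away, fell with -1.47 (edgeR adjusted p = 0.000845) and -2.15 (2.7e-13). Of the neighbours of ANXA4, NFU1 fell with -0.54 (edgeR adjusted p = 0.000113) and GMCL1 had -0.22 (0.0841). Genes also fell beside annexins that were higher: CCDC69 next to ANXA6 (-1.195, edgeR adjusted p = 8.56e-14) and CFAP70 next to ANXA7 (-1.805, 4.05e-11). Next to ANXA11, TMEM254 fell (-0.33, edgeR adjusted p = 0.0371) and MAT1A rose (1.39, 0.000881). The other neighbours of the higher annexins were not called. A link between a gene and its neighbours was not tested.

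Both receptors were close to the detection limit. FPR1 had 0, 0 and 3 counts in the shPHF19 libraries, against 6, 19 and 11 counts in the control libraries. These counts did not overlap, and the sum of 3 in shPHF19 against 36 in control cells gives a ratio of 0.0934 after scaling to library size, with an exact 95% interval of 0.0184 to 0.295 that covers counting error only. FPR2, the main receptor of annexin A1, had 2, 0 and 9 counts in shPHF19 and 5, 7 and 3 counts in control libraries. The FPR2 groups overlapped, 9 of its 11 shPHF19 counts came from replicate 3, and the ratio of 0.822 had an interval of 0.341 to 1.91, so no difference was detectable at this depth. FPR3, the remaining receptor of the family, had 0 counts in all 6 libraries. FPR1 (chromosome 19, 51745172 to 51804110, minus strand) spans FPR2 (51752026 to 51770526, plus strand). No source used here gives the strand setting of the counting, so reads of the pair may not be fully separated.

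ANXA3, known from the granules of neutrophils, was hardly detected. It had 1, 0 and 0 counts in shPHF19 and 1, 1 and 9 counts in control libraries, and the groups overlapped. The ratio of the sums, 1 against 11, was 0.102 with an exact 95% interval of 0.00237 to 0.701, and 9 of the 11 control counts came from replicate 3.

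ANXA2, which forms a complex with S100A10 at the plasma membrane and is known as a receptor for plasminogen and its activator, was higher in shPHF19. It had 114, 116 and 115 CPM in the shPHF19 libraries and 60.3, 64.5 and 60.3 CPM in the control libraries. Every shPHF19 library was well above every control library, with means of 115 ± 1.03 CPM in shPHF19 and 61.7 ± 2.42 CPM in control cells (SD, n = 3 each). The fold was 1.87, with a log2 fold change of 0.90 (SE 0.09). Of the distinct 50-base words of ANXA2 transcripts, 15.0% also occur in the processed copy ANXA2P2, but the 3 copies held few reads: ANXA2P2 had 7 counts in shPHF19 and 11 in control cells, ANXA2P1 had 0 in shPHF19 and 5 in control cells, and ANXA2P3 had 0 in both. With their counts added to ANXA2, its log2 fold change was 0.90. S100A10 was nearly absent, with 1, 5 and 4 counts in shPHF19 and 2, 4 and 5 counts in control libraries, and did not pass the filter. PLG, which encodes plasminogen, had 0 counts in all 6 libraries.

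ANXA4 and ANXA5 bind phosphatidylserine, the lipid that dying cells expose and that labelled annexin A5 is used to stain. ANXA4 was lower, with 18.9, 21.7 and 21.4 CPM in shPHF19 and 33.7, 34.6 and 29.5 CPM in control libraries. All 3 of its shPHF19 values were below the lowest control value. Its means were 20.7 ± 1.52 CPM in shPHF19 and 32.6 ± 2.70 CPM in control cells (SD, n = 3 each), 1.58-fold lower, with a log2 fold change of -0.66 (SE 0.124). ANXA4 overlaps AAK1 on the opposite strand, and AAK1 held 3460 counts over all libraries along its whole length. How many reads fall in the stretch they share, and how those were counted, is not known. AAK1 itself fell to 25.2 CPM in shPHF19, against 48.6 CPM in control cells (log2 fold change -0.94, edgeR adjusted p = 5e-10), and its part in the ANXA4 value was not tested. ANXA5 had 152, 160 and 153 CPM in shPHF19 and 132, 138 and 122 CPM in control libraries. Its groups were separate by a small margin, with means of 155 ± 4.33 CPM in shPHF19 and 131 ± 8.44 CPM in control cells (SD, n = 3 each), and a log2 fold change of 0.24 (SE 0.0845). The ANXA5 call was lost without shPHF19 replicate 2 (log2 fold change 0.22) and without control replicate 3 (0.20). It was lost too with upper-quartile scaling (0.14) and with scaling to library totals only (0.039).

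ANXA6, ANXA7 and ANXA11 act on membrane traffic and were all higher. ANXA6, which carries a duplicated annexin core and is known from endosomes and cholesterol handling, had 581, 514 and 489 CPM in shPHF19 and 275, 321 and 296 CPM in control libraries. The lowest shPHF19 library was far above the highest control library, with means of 528 ± 47.5 CPM in shPHF19 and 297 ± 23.2 CPM in control cells (SD, n = 3 each). ANXA6 was 1.78-fold higher, with a log2 fold change of 0.83 (SE 0.0842).

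ANXA7, or synexin, first known for promoting fusion of chromaffin granules in cattle, had 138, 143 and 148 CPM in shPHF19 and 86.6, 87.5 and 84.4 CPM in control libraries. Replicates of either group lay close together and the groups were well apart. Its means were 143 ± 5.01 CPM in shPHF19 and 86.2 ± 1.58 CPM in control cells (SD, n = 3 each), 1.66-fold higher, with a log2 fold change of 0.73 (SE 0.086). ANXA11, known for a role in the last step of cell division and for tethering RNA granules to lysosomes, had 337, 290 and 293 CPM in shPHF19 and 230, 259 and 247 CPM in control libraries. The margin was narrower here, since shPHF19 replicates 2 and 3 were nearer to the control libraries than replicate 1 was. Its means were 307 ± 26.3 CPM in shPHF19 and 246 ± 14.4 CPM in control cells (SD, n = 3 each), 1.25-fold higher, with a log2 fold change of 0.32 (SE 0.0835). That call was lost with scaling to library totals only (0.11).

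**Figure D2:**
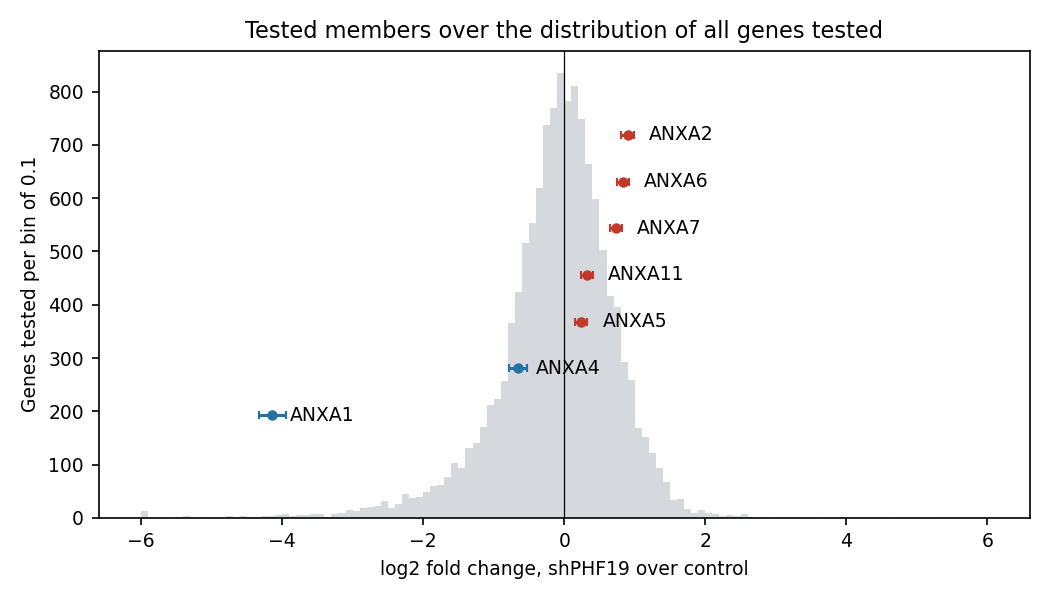
Histogram of the log2 fold changes (shPHF19 over control) of all 13014 genes fitted, in bins of 0.1 with values beyond 6 in the end bins. Drawn over it are the 7 fitted annexins as points with bars of 1 SE. ANXA1 at -4.14 stands in the far left tail, ANXA4 at -0.66 is left of the centre, and the other 5 lie between 0.24 and 0.90.

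The authors' deposited table of 5740 genes, whose largest adjusted p is 0.00993, holds 6 of the 10 genes. Besides ANXA1 it gives log2 fold changes of 0.91 for ANXA2, -0.61 for ANXA4, 0.84 for ANXA6, 0.74 for ANXA7 and 0.33 for ANXA11. ANXA3, ANXA5, FPR1 and FPR2 are not listed in the authors' deposited table.

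Levels were compared between annexins as CPM per kilobase of median coding transcript. In shPHF19 cells ANXA6 led with 249 ± 22.4 CPM per kb, followed by ANXA5 (114 ± 3.18), ANXA2 (79.8 ± 0.71), ANXA11 (66.3 ± 5.68) and ANXA7 (58.2 ± 2.04). ANXA4 (9.81 ± 0.723) and ANXA1 (0.877 ± 0.0351) were far below them (SD, n = 3), and no neighbours in this order overlapped. In control cells ANXA6 (140 ± 11 CPM per kb) and ANXA5 (95.9 ± 6.20) again led, followed by ANXA11 (53.1 ± 3.12), ANXA2 (42.7 ± 1.68) and ANXA7 (35.1 ± 0.649). ANXA1 (15.5 ± 1.35) and ANXA4 (15.5 ± 1.28) had overlapping values in control cells, whereas in shPHF19 cells ANXA1 was the lowest of the 7. The order depends on the length used: with all exons of a gene merged, ANXA6 and ANXA5 kept ranks 1 and 2 in shPHF19 cells, and ANXA7 took rank 3, ANXA11 rank 4 and ANXA2 rank 5. The likeness of ANXA1 and ANXA4 in control cells depends on it too. With all exons merged, their control means were 6.34 CPM per kb for ANXA1 and 2.95 CPM per kb for ANXA4.

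The summed annexin level was 581 ± 23.7 CPM per kb in shPHF19 and 404 ± 18.6 CPM per kb in control cells (SD, n = 3 each). ANXA6 made up 42.8 ± 2.08% of it in shPHF19 and 34.6 ± 1.46% in control cells. ANXA2 made up 13.7 ± 0.641% in shPHF19 and 10.6 ± 0.0736% in control cells. ANXA5 took a smaller share in shPHF19 although its own level was slightly higher, at 19.6 ± 1.06% in shPHF19 and 23.7 ± 1.06% in control cells. ANXA1 made up 0.151 ± 0.0115% of the sum in shPHF19 and 3.86 ± 0.487% in control cells, so that the annexin A1 share was lower and the shares of annexins A6 and A2 were higher. The percentages depend on the length used. With all exons of a gene merged, a choice made after seeing the data, ANXA2 made up 5.16 ± 0.224% in shPHF19 and 3.90 ± 0.0115% in control cells, and ANXA7 19.7 ± 1.39% in shPHF19 and 16.8 ± 0.518% in control cells.

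**Figure D3:**
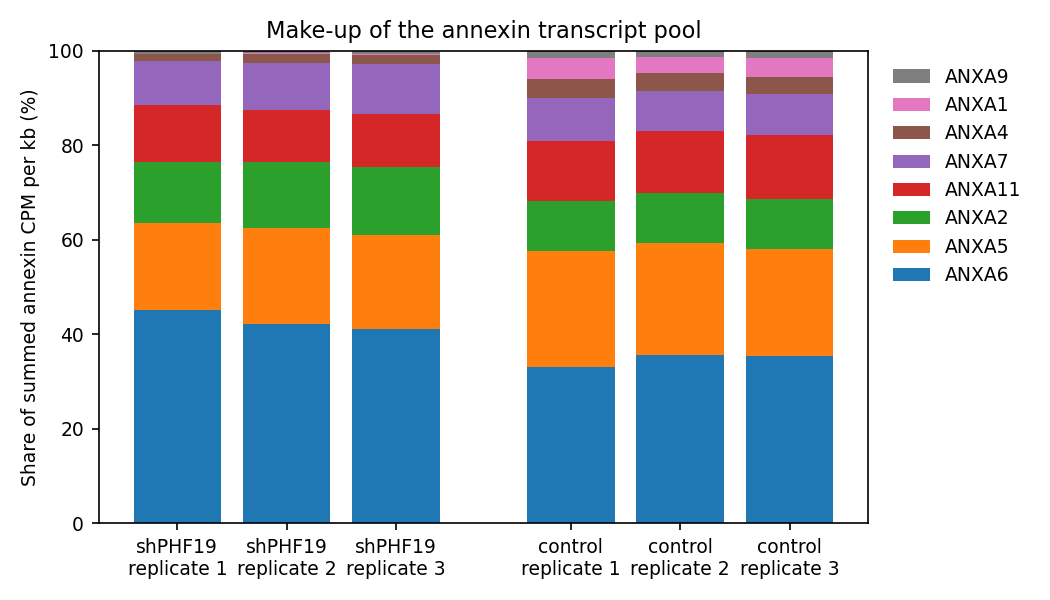
Shares of each annexin in the summed annexin CPM per kb (percent, stacked), by library, with the 3 shPHF19 libraries left of the 3 control libraries and ANXA3, below 0.1% in every library, left out. ANXA6 is the largest share in all 6 libraries, and the ANXA1 share, 3.34 to 4.31% in control libraries, is 0.138 to 0.158% in shPHF19 libraries.

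Of the remaining annexins, ANXA9, whose calcium-binding sites are degenerate, was the only 1 fitted, and it was lower. It had 99, 95 and 109 counts in shPHF19 and 193, 187 and 168 counts in control libraries. The means were 7.0 ± 0.738 CPM in shPHF19 and 11.3 ± 0.529 CPM in control cells (SD, n = 3 each), with a log2 fold change of -0.69 (SE 0.176, edgeR adjusted p = 0.000806). ANXA10 had 2 counts in shPHF19 and 0 in control cells, and ANXA8, ANXA8L1 and ANXA13 had 0 in all 6 libraries.

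The 5 genes whose profile over the 6 libraries was most like that of ANXA1 were IL20RB, P2RX7, INHBE, ITGAL and OSCAR. They were taken from genes averaging 5 CPM or more, with clone-based names passed over. Likeness was the root mean square difference of mean-centred log2(CPM + 0.5), which was 0.115 for IL20RB, 0.122 for P2RX7, 0.125 for INHBE, 0.191 for ITGAL and 0.195 for OSCAR. Their log2 fold changes were -3.98 for IL20RB, -3.92 for P2RX7, -4.72 for INHBE, -4.13 for ITGAL and -3.85 for OSCAR, against -4.14 for ANXA1. Values near that of ANXA1 follow from the way these genes were picked. The added 0.5 narrows the profile of INHBE most, since it had 0.417 CPM in shPHF19 and 11.1 CPM in control cells.

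Of 11 listed annexin partners 9 were fitted, 3 of them higher and 4 lower in shPHF19, against 60.2% of all genes fitted (29.4% higher and 30.9% lower). Their median log2 fold change was -0.20, and that of all genes -0.03. Sorcin (SRI), a calcium-binding partner of annexin A7, rose to 78.2 ± 7.23 CPM in shPHF19, against 27.1 ± 3.78 CPM in control cells (log2 fold change 1.52, edgeR adjusted p = 1.32e-16). PDCD6, the ALG-2 protein that binds annexins A7 and A11, rose to 145 ± 6.45 CPM in shPHF19, against 98.2 ± 12.1 CPM in control cells (0.56, adjusted p = 6.21e-07). S100A11, the S100 partner of annexin A1, fell to 58.6 ± 3.99 CPM in shPHF19, against 98.5 ± 7.37 CPM in control cells (-0.75, adjusted p = 2.61e-09). AHNAK, a large scaffold bound by the annexin A2 complex, fell to 3.58 ± 1.23 CPM in shPHF19, against 16.9 ± 1.93 CPM in control cells (-2.26, adjusted p = 8.13e-14). S100A4, which is known to bind annexin A2, rose to 22.9 ± 1.34 CPM in shPHF19, against 15.5 ± 1.78 CPM in control cells (0.56, adjusted p = 0.000504). The count of 4 lower was 2 without shPHF19 replicate 2, without control replicate 1 or without control replicate 2, each of which ended the call of ANXA2R (main log2 fold change -0.54, edgeR adjusted p = 0.0249, and 0.00231 to 0.115 over 13 alternatives). The other weak call was PDCD6IP (-0.20, adjusted p = 0.0331), which was lost in 8 of 13 alternatives, with adjusted p between 6.16e-05 and 0.124.

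All 9 listed genes of signalling below the formyl peptide receptors were fitted, and 5 were higher and 3 lower in shPHF19, against 60.2% of all genes fitted (29.4% higher and 30.9% lower), with a median log2 fold change of 0.30. The G protein subunits GNAI2 and GNB2 each rose by 0.77 on the log2 scale (edgeR adjusted p = 1.8e-11 for GNAI2 and 1.45e-10 for GNB2), and PIK3CG, a lipid kinase downstream of them, with 0.55 (3.9e-07). The arrestins, which end receptor signalling, moved in opposite directions: ARRB2 fell with -0.65 (3.32e-08) and ARRB1 rose with 0.30 (0.00241). GNAI3 fell with -0.47 (5.54e-05). So this machinery was expressed in both groups, with GNAI2 at 684 ± 42.2 CPM in shPHF19 and 401 ± 17.0 CPM in control cells, while few reads of its receptors FPR1 and FPR2 were found in either group. With scaling to library totals only, 3 were higher, since the calls of GNB1 and ARRB1 were lost.

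Of 9 genes linked to the control or the actions of annexin A1, 3 were higher and 4 lower in shPHF19, against 60.2% of all genes fitted (29.4% higher and 30.9% lower), with a median log2 fold change of -0.15. NR3C1, the glucocorticoid receptor, fell to 66.1 ± 1.08 CPM in shPHF19, against 138 ± 14.6 CPM in control cells (log2 fold change -1.07, edgeR adjusted p = 4.52e-14). TSC22D3, the glucocorticoid-induced leucine zipper, fell to 222 ± 7.36 CPM in shPHF19, against 647 ± 23.8 CPM in control cells (-1.54, adjusted p = 2.11e-21). The steroid-inducible genes did not all move alike: DUSP1 fell with -0.78 (edgeR adjusted p = 0.000221), whereas FKBP5 had 0.18 (adjusted p = 0.0615). PER1 had -0.16 (edgeR adjusted p = 0.342), with groups that overlapped. FKBP5 and PER1 were named after their values were seen. The FKBP5 adjusted p ran from 0.0266 to 0.809 over 13 alternatives, and its log2 fold change was -0.025 with scaling to library totals only. PRTN3 and ELANE, neutrophil proteases able to cleave annexin A1, rose. Both are counted again among the neutrophil granule markers below. PRTN3 had 264 ± 16.0 CPM in shPHF19 and 23.7 ± 2.12 CPM in control cells (3.48, adjusted p = 4.01e-32), and ELANE had 63.2 ± 7.72 CPM in shPHF19 and 4.19 ± 1.33 CPM in control cells (3.90, adjusted p = 3.07e-26). PLA2G4A, the cytosolic phospholipase whose activity annexin A1 is known to restrain, rose to 10.3 ± 2.04 CPM in shPHF19, against 3.73 ± 0.248 CPM in control cells (1.46, adjusted p = 4.04e-08). The part of these genes in the ANXA1 level was not tested.

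Genes listed for exposing or hiding phosphatidylserine, the ligand of ANXA4 and ANXA5, moved in both directions. Of 8 listed and 7 fitted, 2 were higher and 3 lower, against 60.2% of all genes fitted (29.4% higher and 30.9% lower). PLSCR1, named as a phospholipid scramblase, fell by 0.58 on the log2 scale (edgeR adjusted p = 1.58e-06). The flippase ATP11B fell with -0.42 (edgeR adjusted p = 0.000244), and the scramblase XKR8 rose with 0.48 (0.00294). With scaling to library totals only, 0 were higher and 5 lower, and with upper-quartile scaling 5 were lower. Of 10 membrane repair genes, a process in which annexins A1, A2 and A6 take part, 9 were fitted, 3 higher and 4 lower, set against the same shares. MYOF, a ferlin, fell to 3.49 ± 0.394 CPM in shPHF19, against 16.4 ± 2.73 CPM in control cells (-2.24, adjusted p = 3.27e-14). The paralogous ESCRT ATPases moved in opposite directions. VPS4A rose to 170 ± 19.3 CPM in shPHF19, against 106 ± 5.43 CPM in control cells (0.68, adjusted p = 6.72e-09), and VPS4B fell to 69.0 ± 9.72 CPM in shPHF19, against 92.4 ± 12.2 CPM in control cells (-0.42, adjusted p = 0.000392). The count of 4 lower repair genes was 2 without shPHF19 replicate 3 or without control replicate 2, where the calls of DYSF and CHMP4A were lost.

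**Figure D4:**
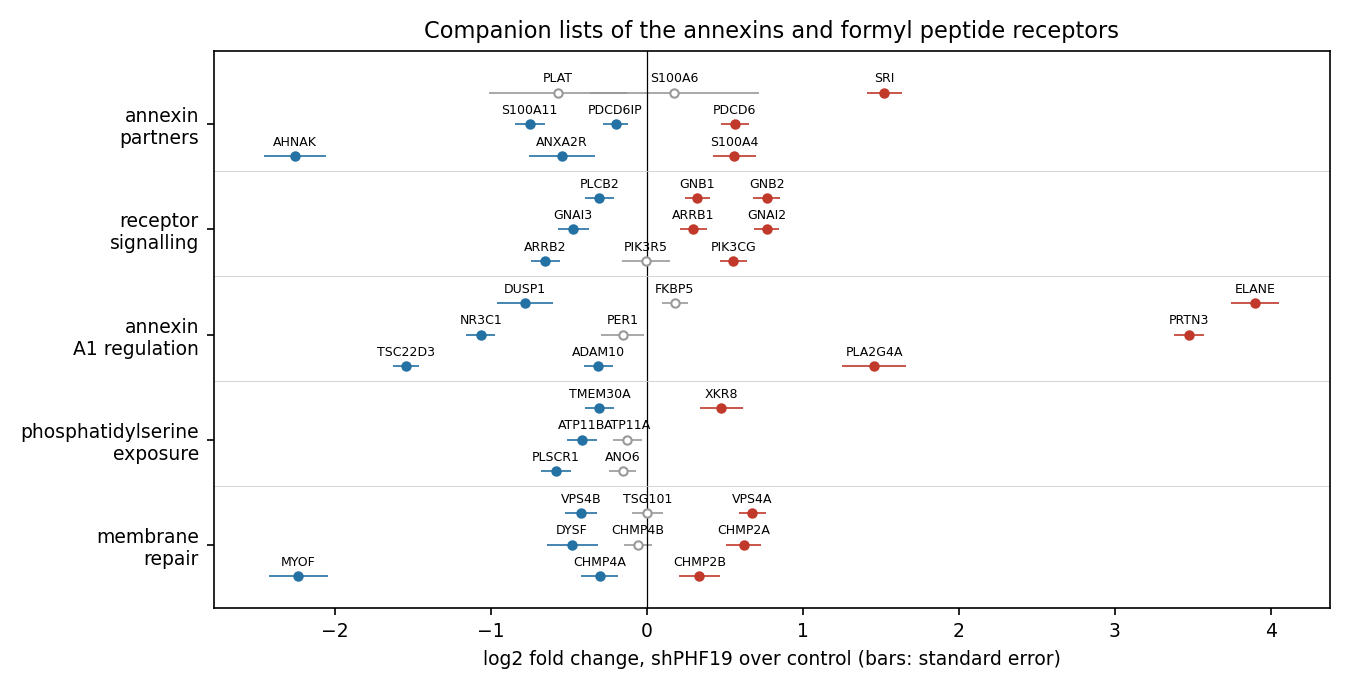
Log2 fold change (shPHF19 over control) with bars of 1 SE for the fitted genes of the 5 companion lists that are reported here; filled red points are called higher, filled blue points called lower and open grey points not called, at an edgeR adjusted p under 0.05. ELANE (3.90) and PRTN3 (3.48) lie farthest to the right, and AHNAK (-2.26) and MYOF (-2.24) farthest to the left.

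Most fitted monocyte markers were lower, and the fitted neutrophil granule markers higher, in the libraries in which ANXA1 was lower. Of 14 monocyte markers 9 were fitted, 6 lower and 1 higher, against 60.2% of all genes fitted (29.4% higher and 30.9% lower). The summed level of the list was 131 to 150 CPM in shPHF19 and 400 to 427 CPM in control libraries. ITGAM fell to 3.80 ± 0.156 CPM in shPHF19, against 34.3 ± 3.0 CPM in control cells, while CD14 had 3 counts in shPHF19 and 4 in control cells. The 1 marker higher was FCN1, with 0.986 CPM in shPHF19 and 0.0216 CPM in control cells. It was not fitted with a filter of at least 1 CPM in 3 libraries, which left 0 higher, and without control replicate 1 the count was 2. Of 10 neutrophil granule markers 6 were fitted (MPO, ELANE, PRTN3, AZU1, CTSG and BPI) and all 6 were higher, set against the same shares. The contrast with the monocyte list depends on which genes each list holds, and it is not read as one between cell types. The sums of this list, mostly MPO, were 8520 to 9930 CPM in shPHF19 and 4160 to 4600 CPM in control libraries. Of the unfitted granule markers, CAMP had 1 count in shPHF19 and 11 in control cells, MMP9 had 1 in shPHF19 and 13 in control cells, LTF had 20 in shPHF19 and 10 in control cells, and MMP8 had 1 in shPHF19 and 0 in control cells. These lists were chosen with results of these data known, their part in the ANXA1 result was not tested, and in bulk RNA fewer cells of a type and less RNA per cell cannot be told apart.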

How the data were processed

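RNA-seq libraries were made from total RNA with a KAPA Hyper Prep kit, per the labels' protocols, and HISAT2 2.1.0, HTSeq 0.11.2 and build hg38 are named in the submitters' processing notes. No source used here gives the annotation or the strand setting. The authors deposited whole-number counts per gene symbol, not normalized. They also deposited a table of their comparison with a mean normalized signal (baseMean), log2 fold changes with errors, and p-values, by a tool that no source used here names.

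Groups came from the sample titles. The deposited counts were tested with edgeR 4.0.16 (limma 3.58.1, R 4.3.3): filterByExpr, TMM scaling, robust quasi-likelihood F test of group over all 6 libraries, and Benjamini-Hochberg adjustment over all 13014 genes fitted at 0.05. The SE is the log2 fold change divided by the square root of F. CPM were computed here. Ratios of low counts have exact (Clopper-Pearson) 95% intervals. No replicates were copies of each other (chi-square of 4.78 to 12.4 per degree of freedom, where sampling noise gives about 1). Alternatives were RLE, upper-quartile and totals-only scaling, DESeq2 1.42.0, other filters, each library left out, and a replicate block.

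The 10 genes and all lists were chosen with earlier results of these data known. Named were the 10 genes, their remaining family and pseudogene copies, called members of the companion lists, and the 5 genes most like ANXA1. Markers, AAK1 and neighbouring genes were named after their values were seen. Positions and transcript lengths came from GENCODE 29, and start regions from RefSeq. A comparison of CG content with fold change over all genes was not made. Some results that the lists cover are not reported here, although the counts include them.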

Additional observations from a re-analysis of the deposited data

How the results depend on the processing

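ANXA1, ANXA2, ANXA4, ANXA6 and ANXA7 kept their direction and call under every alternative run. Their log2 fold changes, in that order, were -4.34 to -4.07, 0.70 to 0.95, -0.86 to -0.60, 0.62 to 0.90 and 0.52 to 0.75. The genes were picked from this comparison, and the refits use the same libraries. They describe dependence on processing only and are no independent support for the calls. With library totals only, the median of all genes was -0.24 in place of -0.03, 31.6% of called genes were higher in place of 48.8% (2596 higher and 5617 lower, against 3820 and 4015 in the TMM fit), and 3 in place of 5 of the 10 genes were called higher, with ANXA5 at 0.039 and ANXA11 at 0.11. Relative to that median ANXA5 stood at 0.28 and ANXA11 at 0.35 under both scalings. A change of scaling shifts all genes by about the same amount, so this sameness is built in and does not restore the calls. Under totals only, receptor signalling had 3 higher, phosphatidylserine exposure 0 higher and 5 lower, and FKBP5 reversed to -0.025. Upper-quartile scaling put the median at -0.14 and ANXA5 at 0.14, with 5 phosphatidylserine genes lower. At least 1 CPM in 3 libraries left 0 monocyte markers higher. With no filter FPR1 was also called, which made 3 of the 10 genes lower. Leaving out 1 library at a time, ANXA5 ranged from 0.20 to 0.30, partners lower from 2 to 4, repair genes lower from 2 to 4, and monocyte markers higher from 1 to 2. Replicate numbers did not pair the libraries (correlations of -0.23, -0.01 and -0.06 for numbers 1 to 3, and 0 of 6 libraries correlated best with their own number). With the replicate block, 5 of the 10 genes were higher and 2 lower, ANXA1 was at -4.13, and 3555 genes were higher and 3752 lower. Depth limits ANXA3, FPR1 and FPR2, for which 3 counts are 0.181 to 0.211 CPM by library totals without TMM factors.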
